A study of Homo sapiens with 2 samples.

Results

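The genes described here encode the machinery that makes, breaks down, anchors and reads the second messenger cyclic AMP (cAMP). They are the adenylyl cyclases (ADCY), the cyclic nucleotide phosphodiesterases (PDE), the regulatory (PRKAR) and catalytic (PRKAC) subunits of protein kinase A (PKA), the A-kinase anchoring proteins (AKAP), and the transcription factors CREM and ATF1 with every gene whose symbol starts with CREB. Members were taken by symbol alone from the probe sets that the platform annotation assigns to exactly 1 gene. The rule uses no measured value, but the pathway and the rule were chosen with earlier results of these data known. The rule found 60 of 14232 measured genes, each with 1 probe set. In RefSeq, 72 protein-coding genes fit it. Of the other 12, 7 (ADCY3, AKAP13, PDE10A, PDE1B, PDE2A, PDE4C and PDE4DIP) were on the array only through probe sets annotated to several genes, and 5 (ATF1, AKAP17A, PDE12, PDE1A and PRKAR1B) had no annotated probe set, so these 12 are not analysed here.

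Expression was measured in J82, an established human bladder cancer cell line, grown in serum-containing medium without further treatment. Hoechst, a DNA dye, was used in flow cytometry to sort the side population (SP), cells that keep little of the dye because they pump it out, from the non-side population (NSP), which retains it. RNA of each population was hybridised to a human exon array, 1 array for SP and 1 for NSP. Both groups come from the same line, and no genotype or treatment separates them. Neither population was replicated, so differences have no error between samples and no p-value, and each value describes these 2 arrays.

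All values are taken as log2 signals, a scale inferred from the RMA method and the range of the values, and each difference is SP minus NSP on that scale. The SP array had a median of 7.43 over 22011 probe sets and the NSP array one of 7.44. A gene is said to reach the floor when its higher value is at or above 7.44, the median of all values on both arrays, and 7549 genes did. Of these, 95% had differences between -0.51 and 0.63. A gene counts as differing when it reaches the floor and its values are at least 1.5-fold apart, a log2 difference of 0.585. As a check of the labels, all 3 transporter genes tied to dye efflux (ABCB1, ABCC1 and ABCG2) had higher values in SP than in NSP. Only ABCB1 (0.70) counts as differing. ABCC1 (0.38) fell short of 1.5-fold, and ABCG2 (0.45) was under the floor on both arrays. With no floor, 49.2% of all genes and 10 of 12 urothelial markers were also higher in SP, so direction alone is a weak check. Of 12 urothelial markers 5 reached the floor (KRT7, KRT8, KRT18, FOXA1 and PPARG), while UPK1A, UPK1B, UPK2, UPK3A, KRT20, GATA3 and ELF3 did not.

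As background, hormone receptors that couple to the stimulatory G protein switch on adenylyl cyclases, which turn ATP into cAMP. The messenger binds the regulatory subunits of PKA and frees the catalytic subunits, which phosphorylate nearby targets chosen by the anchoring proteins that hold the kinase in place, and in the nucleus they phosphorylate CREB1, which then recruits the acetyltransferase CREBBP. Phosphodiesterases end the signal, and some PDE4 genes are themselves induced by cAMP, which forms a feedback loop.

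CREB1, CREM and ATF1 proteins bind the cAMP response element (CRE), TGACGTCA, or its shorter core, TGACG. Both were searched on either strand in RefSeq promoters (GRCh38.p14, 250 bases before to 50 after each gene start). Every CRE also holds the core on each strand, so the counts overlap. The table held 112 promoters of 50 members. No entry was found for ADCY6, ADCY8, ADCY9, AKAP3, AKAP8L, PDE3B, PDE6G, PDE7A, PDE9A and PRKACG. A CRE stood in 7 of the 112 promoters (6.25%), against 2.36% of the 16426 promoters of all measured genes and 1.85% of all 35116 promoters in the table. The core stood in 31 of 112 (27.7%), against 28.0% for measured genes and 24.6% of all promoters. Counted by gene, the core stood in 44.0% of the 50 members, against 35.7% of 11386 measured genes. The CRE stood in 10.0% of the members and 3.23% of those genes. Promoters of a gene can overlap, and a gene with more promoters has more chances of a hit. The 7 promoters belong to 5 genes, because the same site of CREM and of PRKAR1A falls within the windows of a pair of neighbouring starts. These sites are shown because they are where the pathway's own transcription factors could bind its members. The CRE is in capitals with 11 bases on either side, 5′ to 3′ on the gene's strand.
CREM (chr10:35195841-35195870, plus strand, CRE starting at -50 from the gene start): gagctgcacatTGACGTCAgctccgagtca
PRKAR1A (chr17:68512370-68512399, plus strand, CRE starting at -49): gcgaggcgcatTGACGTCAgtagccgaacg
PDE4A (chr19:10416759-10416788, plus strand, CRE starting at -3, so it runs over the gene start): cgtcagtccgcTGACGTCAcgccccaggag
PDE7B (chr6:135851535-135851564, plus strand, CRE starting at -155): actaaacccttTGACGTCActcttgaaatg
CREB3L2 (chr7:138002247-138002276, minus strand, CRE starting at -179): gagttcctcggTGACGTCAcagacactccc

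None of the 5 genes that differed by 1.5-fold or more (below) had the full CRE in the windows searched. PDE4D held the core in 1 of its 8 promoters searched and AKAP9 in 2 of 2, while PDE4B, PRKAR2B and CREB1 held neither. By gene, the core stood in 35.7% of measured genes and the CRE in 3.23%. The core is shown in capitals in the same way.
PDE4D (chr5:59587667-59587693, minus strand, core starting at -57): gagggccccctTGACGccagcacatcc
AKAP9 (chr7:92057421-92057447, plus strand, core starting at -146): tttcaaagcccTGACGtggaacttgga

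Across the pathway, 5 members had at least 1.5-fold higher values in SP and 0 had values lower by that margin. The 5 were CREB1, PDE4D, PDE4B, PRKAR2B and AKAP9. CREB1 is a CRE-binding factor, and PDE4D and PDE4B are cAMP-specific phosphodiesterases. PRKAR2B is a PKA regulatory subunit and AKAP9 a large anchoring protein of the Golgi and centrosome. Only 28 of the 60 members reached the floor, so the count is 5 of 28, where 3.1% of all genes that reached it were as much higher in SP and 1.43% as much lower. Of the 28, 16 were higher in SP by any margin, 11 were lower and PRKACB was equal. Among all genes that reached the floor 40.1% were higher. The median difference of the 28 members was 0.08, and that of all 7549 genes was -0.05. In a sorted bulk sample, fewer cells that express a gene and less RNA of it per cell cannot be told apart.

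**Figure D1:**
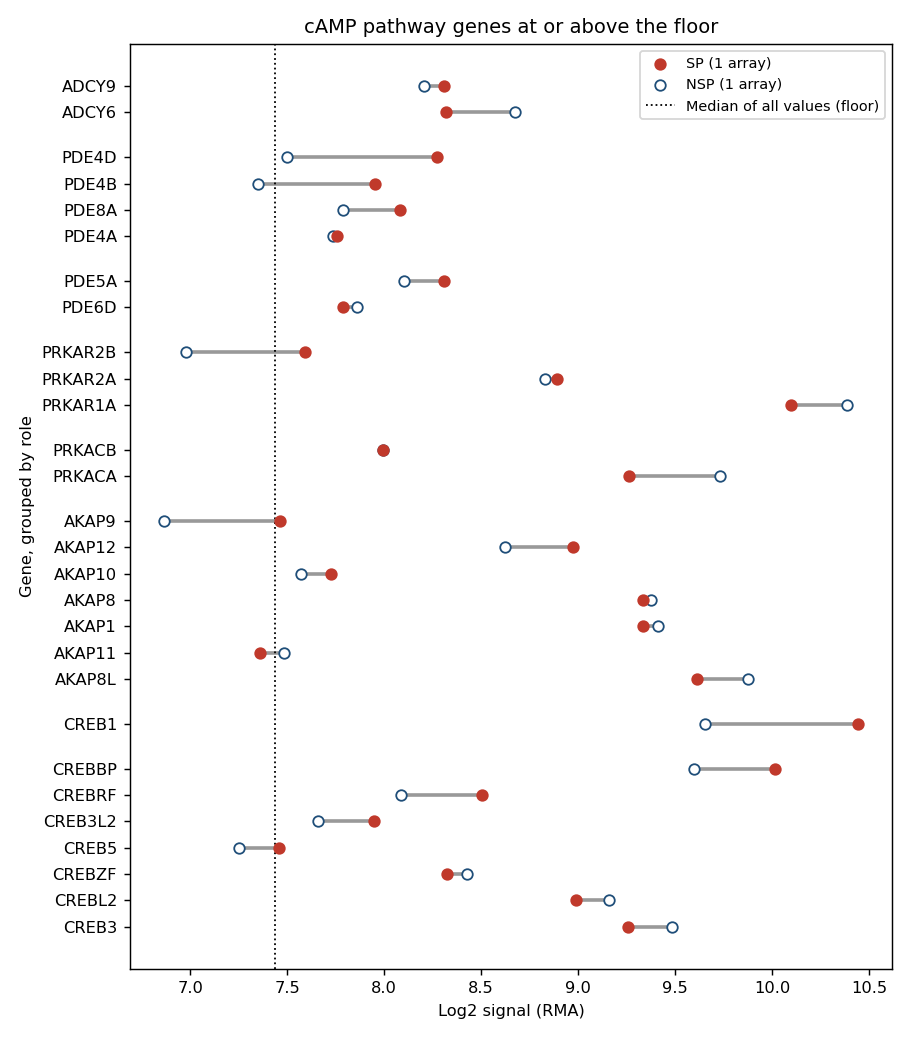
Log2 signal of the 28 cAMP pathway genes at or above the floor (x axis) for SP (filled) and NSP (open), 1 array each, with genes on the y axis grouped by role and the floor of 7.44 as a dotted line. The widest gaps with SP to the right are those of CREB1, PDE4D, PRKAR2B, PDE4B and AKAP9, and the widest with SP to the left is that of PRKACA.

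The 5 calls did not rest on equally firm signals. CREB1 read 10.44 in SP and 9.66 in NSP, and PDE4D 8.27 in SP and 7.50 in NSP, so both values of each gene lay above the floor. For PDE4B, PRKAR2B and AKAP9 the NSP value lay under the floor. When both values had to reach it, only CREB1 and PDE4D remained, 2 of 23 members, against 2.8% of all genes. AKAP9 reached the floor narrowly in SP, at 7.46, and once the trend of differences on signal level was removed its difference was 0.575, just short of the threshold.

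Of the adenylyl cyclases, which make cAMP, none that reached the floor differed by 1.5-fold. Of 9 measured cyclase genes only ADCY6 and ADCY9 reached the floor. ADCY6, a membrane cyclase inhibited by calcium, read 8.32 in SP and 8.68 in NSP, a 1.28-fold lower value in SP. ADCY9, a widely expressed membrane cyclase, read 8.31 in SP and 8.21 in NSP, 1.07-fold higher in SP. The other 7 (ADCY1, ADCY2, ADCY4, ADCY5, ADCY7, ADCY8 and the soluble, bicarbonate-activated ADCY10) stayed under the floor on both arrays, with differences from -0.07 for ADCY10 to 0.16 for ADCY8.

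The measured phosphodiesterases that act on cAMP alone all had higher values in SP. These 7 genes (PDE4A, PDE4B, PDE4D, PDE7A, PDE7B, PDE8A and PDE8B) had a median difference of 0.45, where 49.2% of all 14232 genes, with no floor, were higher in SP. All but PDE4A (52.9 kb, difference 0.02) span more than 100 kb, and long genes had higher differences over the whole array (below). Whether role or span goes with these values was not tested. PDE4D, which has many promoters and isoforms and is anchored near PKA, was 1.71-fold higher. PDE4B, known for its part in inflammatory signalling, read 7.95 in SP and 7.35 in NSP, 1.52-fold higher. The probe set of each gene pools its isoforms, so the values do not tell long from short PDE4 forms.

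Among the other cAMP-specific enzymes the sizes were smaller or the signals dimmer. PDE8A, a high-affinity enzyme insensitive to common inhibitors, read 8.08 in SP and 7.79 in NSP, 1.23-fold higher. PDE4A, with a CRE over the gene start in 1 of its 5 promoters searched, read 7.75 in SP and 7.74 in NSP, a difference of 0.02. Its value cannot be tied to that promoter. PDE8B (6.24 in SP against 5.70 in NSP), PDE7A (6.96 against 6.51) and PDE7B (5.76 against 5.56) were under the floor on both arrays, and for such dim probe sets neither a level nor a difference is well measured. On the floor rule this role thus held 4 genes, of which PDE4D and PDE4B differed by 1.5-fold.

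Among phosphodiesterases with other substrates none reached 1.5-fold. The enzymes that cut both cAMP and cGMP (PDE1C, PDE3A, PDE3B and PDE11A) were all under the floor, with differences from -0.01 for PDE1C to 0.19 for PDE11A. PDE5A, the cGMP-specific target of sildenafil, read 8.31 in SP and 8.10 in NSP, 1.15-fold higher. PDE6D, which despite its name is a carrier of prenylated proteins, read 7.79 in SP and 7.86 in NSP. PDE9A and the retinal subunits PDE6A, PDE6B, PDE6C, PDE6G and PDE6H were under the floor, with differences from -0.03 for PDE6H to 0.24 for PDE6C. Counting every PDE symbol, 15 of 19 were higher in SP and 4 lower, where 49.2% of all genes, with no floor, were higher. Only 6 of the 19 reached the floor, and PDE6D alone was lower among them. Of all genes that reached it 40.1% were higher.

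**Figure D2:**
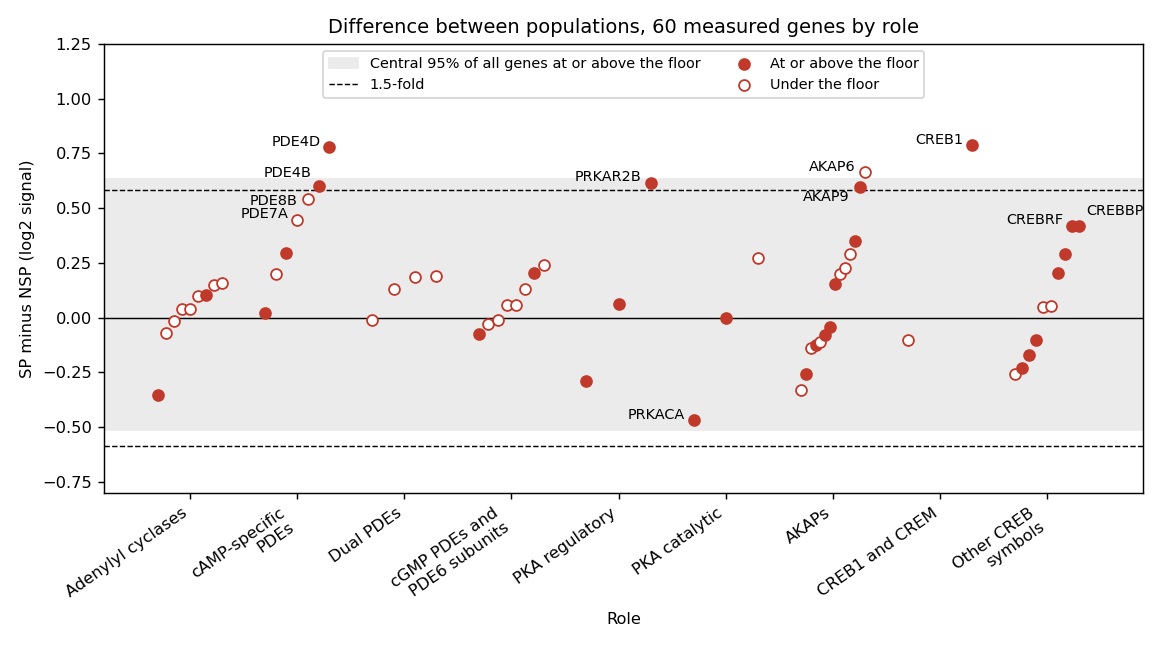
SP minus NSP difference in log2 signal (y axis) of all 60 measured genes by role (x axis), 1 array per population. Filled points reached the floor, open points did not, dashed lines mark 1.5-fold and the grey band holds the central 95% of all genes that reached the floor. Every cAMP-specific PDE lies above 0, and PDE4D and CREB1 are the 2 filled points outside the band.

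Subunits of PKA differed in both directions. PRKAR2B, the type II beta regulatory subunit, read 7.59 in SP and 6.98 in NSP, 1.53-fold higher. PRKAR2A, its alpha counterpart, read 8.89 in SP and 8.83 in NSP, a difference of 0.06. PRKAR1A, the type I alpha subunit whose loss causes Carney complex, read 10.10 in SP and 10.39 in NSP, 1.22-fold lower in SP. A CRE stood in 2 of its 5 promoters searched. The regulatory genes thus spanned differences from -0.29 to 0.61.

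The catalytic subunits were not higher in SP where they could be measured. PRKACA, the main catalytic subunit in most tissues, read 9.26 in SP and 9.73 in NSP. It was 1.39-fold lower in SP, the most negative difference of any member (-0.47), and 3.47% of the 7549 genes had a more negative one. PRKACB, the beta catalytic subunit, had the same value of 7.99 on both arrays to all printed decimals, as did 223 probe sets in all. PRKACG, a gene without introns that resembles PRKACA, was under the floor at 6.92 in SP and 6.65 in NSP. Whether its probes also detect PRKACA was not tested.

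The anchoring proteins were split in direction. Of 14 measured AKAP genes 7 were higher and 7 lower in SP, where 49.2% of all genes were higher. Among the 7 at or above the floor 3 were higher and 4 lower, with a median of -0.04, where 40.1% of all genes that reached it were higher. AKAP9, also called AKAP450, read 7.46 in SP and 6.87 in NSP, 1.51-fold higher. AKAP12, a scaffold at the plasma membrane also known as gravin, read 8.97 in SP and 8.62 in NSP, 1.27-fold higher. AKAP10, which binds both types of regulatory subunit, read 7.73 in SP and 7.57 in NSP.

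The other anchors that reached the floor lay on the other side of 0 by small margins. AKAP8L, a nuclear protein related to AKAP8, read 9.61 in SP and 9.87 in NSP, 1.20-fold lower. AKAP11 read 7.36 in SP and 7.48 in NSP, and AKAP1, which holds PKA at the outer mitochondrial membrane, read 9.33 in SP and 9.41 in NSP. AKAP8, a nuclear matrix anchor, read 9.33 in SP and 9.37 in NSP, and the differences of AKAP1 (-0.08) and AKAP8 (-0.04) became positive when the trend on signal level was removed, that of AKAP8 also after quantile normalisation. AKAP6, the muscle anchor mAKAP, had one of the wider gaps of all members, at 7.04 in SP and 6.38 in NSP, but both values were under the floor. With no floor it adds a 6th member at 1.5-fold (6 of 60, against 2.24% of all genes). AKAP3, AKAP4, AKAP5, AKAP7, AKAP14 and AKAP19 were also under the floor, with differences from -0.33 for AKAP5 to 0.29 for AKAP19.

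ATF1 had no annotated probe set and CREM was under the floor, so of CREB1, CREM and ATF1 only CREB1 could be judged. Its 1.72-fold higher value in SP was the widest difference of any member, at 0.79 on the log2 scale, and 98.6% of all genes that reached the floor had a lower difference. CREM, which makes both activators and the cAMP-induced repressor ICER, was under the floor at 5.44 in SP and 5.54 in NSP, so its level in J82 could not be judged. Its probe set pools these forms.

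Cofactors of CREB and proteins that share its name were split. CREBBP, the acetyltransferase that binds phosphorylated CREB1, read 10.02 in SP and 9.60 in NSP, 1.34-fold higher. CREBRF, a regulator that promotes the turnover of CREB3, read 8.50 in SP and 8.09 in NSP, also 1.34-fold higher. CREB3L2, a factor anchored in the endoplasmic reticulum, read 7.95 in SP and 7.66 in NSP, 1.22-fold higher, and CREB5, a relative of ATF2, 1.15-fold higher. CREB3 itself, a membrane-anchored factor released by proteolysis, was 1.17-fold lower (9.26 in SP against 9.49 in NSP). CREBL2 (-0.17) and CREBZF (-0.10) had negative differences too, and CREB3L1, CREB3L3 and CREB3L4 were under the floor. Taking only the CREB symbols other than CREB1 at or above the floor, 4 of 7 were higher and 3 lower, and none reached 1.5-fold. Among all genes that reached the floor 40.1% were higher.

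Gene span, which the choice of members did not use, went with the direction of the members' differences. In RefSeq (GRCh38.p14) the 28 members at or above the floor span a median of 93.1 kb, against 29.0 kb for all 7549 genes. Of the 14 members spanning 100 kb or more, 12 were higher in SP, PRKAR1A was lower and PRKACB equal. Their median difference was 0.29, against 0.07 for all genes of that span at or above the floor. Of the 14 shorter members 4 were higher (CREB1, CREBRF, AKAP10 and PDE4A) and 10 lower. Their median was -0.09, against -0.08 for all shorter genes at or above the floor. PDE4D, PDE4B, AKAP9 and PRKAR2B all belong to the longer class. PDE4B, PRKAR2B, AKAP9 and CREB5, all in the longer class, reached the floor in SP alone, and AKAP11, in the shorter class, in NSP alone. With both values required to reach the floor, SP was higher for 8 of 10 longer members (median 0.25) and for 4 of 13 shorter ones (median -0.08). All genes passing that rule had medians of 0.06 (longer) and -0.08 (shorter). The share of all genes of each span higher by any margin is not given here. How far the members' counts depart from it was not tested.

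A contrast in the same direction was present over all genes. Among the 1247 genes of 100 kb and over at or above the floor the median difference was 0.07, and 6.9% were higher in SP by 1.5-fold or more. For the 6302 shorter genes the median was -0.08 and the share 2.35%. The members' counts were 4 of 14 in the longer class and 1 of 14, CREB1, in the shorter. With both values at the floor they were 1 of 10 (PDE4D) and 1 of 13 (CREB1). The shares of all genes of those spans were then 5.6% and 2.27%. Counts this small cannot show whether a contrast between the members of the 2 classes remained. CREB1 spans 76.0 kb, PDE4D 1553 kb and PDE4B 582 kb. The part of gene span in the members' differences was not tested.

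**Figure D3:**
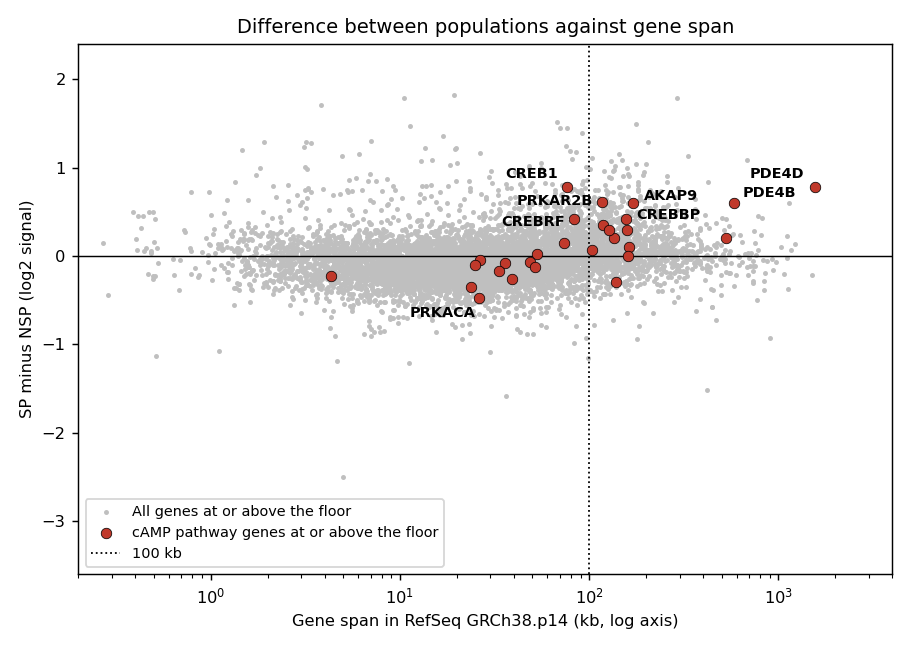
SP minus NSP difference in log2 signal (y axis) against gene span in RefSeq (x axis, log scale in kb) for all 7549 genes at or above the floor (grey) and the 28 cAMP pathway genes among them (red), with 100 kb as a dotted line. Right of the line 12 of 14 members lie above 0, and left of it 10 of 14 lie below 0. The medians of all genes were 0.07 for 100 kb and over and -0.08 for shorter genes.

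Holding a CRE went with no such contrast. Of all genes that reached the floor 259 had a CRE in a RefSeq promoter, and 3.09% of these were higher in SP by 1.5-fold or more and 1.16% lower by as much. Of the 6022 genes with promoters but no CRE, 3.12% were as much higher in SP. The median differences were -0.03 with a CRE and -0.05 without. The 3 members with a CRE at or above the floor were CREB3L2 (0.29), PDE4A (0.02) and PRKAR1A (-0.29).

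The surroundings of the pathway were described with 8 lists of genes that are not members. The G alpha subunits, which pass the receptor signal to the cyclases, had 7 of 7 genes at or above the floor and none at 1.5-fold. GNAS, the stimulatory subunit, read 11.23 in SP and 11.37 in NSP, a difference of -0.14. GNAL, its olfactory relative (0.34), and the inhibitory subunit gene GNAI1 (0.29) were positive, and the inhibitory GNAI2 was negative (-0.27). Receptors that couple to the stimulatory protein had 9 of 29 measured genes at or above the floor. Of these 5 were higher, 4 lower and none at 1.5-fold, where 40.1% of all genes that reached the floor were higher. The prostaglandin receptor PTGER4 came nearest, at 10.79 in SP and 10.21 in NSP, and it passed 1.5-fold once each array was centred on its median. The adenosine receptor ADORA2B read 8.45 in SP and 7.96 in NSP, while the receptors GPR3 (-0.29) and VIPR1 (-0.31) were negative.

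The lists of effectors, PKA partners and CREB coactivators, of the cGMP pathway and of cAMP export held no gene at 1.5-fold either. Of the other cAMP effectors only the channel genes HCN2 (-0.20) and HCN3 (-0.34) reached the floor. Among PKA inhibitors and substrate partners, PKIG (0.11) and ARPP19 (-0.15) did. Of 9 coactivators and kinases of CREB at or above the floor 6 were higher, 2 lower and none reached 1.5-fold. The share higher among all genes that reached the floor was 40.1%. SIK3 (7.98 in SP against 7.43 in NSP) and SIK2 (8.06 against 7.60), kinases that hold the CRTC coactivators in the cytoplasm, were 1.46-fold and 1.38-fold higher in SP. EP300, the partner of CREBBP, had no single-gene probe set. In the cGMP list only NPR1 (-0.23) and NPPB (0.19) reached the floor, and the cAMP exporter gene ABCC4 had a difference of -0.06.

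The list of genes known as CREB targets was the only one of the 8 with genes past 1.5-fold at this threshold and floor. Of its 21 genes at or above the floor 18 were higher in SP, 11 of them by 1.5-fold or more, and 0 were lower by 1.5-fold, with a median difference of 0.60. Over all genes that reached the floor the shares were 40.1% higher, 3.1% higher by 1.5-fold and 1.43% lower by 1.5-fold. PPARGC1A, the coactivator of mitochondrial and gluconeogenic genes, read 10.73 in SP and 9.64 in NSP, 2.12-fold higher. The immediate early genes EGR1 (1.71), DUSP1 (1.23) and KLF4 (1.13) had wider differences still. Many genes of this list respond as well to growth factor and stress signals that do not pass through cAMP, and several were already known from earlier results of these data to be higher in SP, so the count is not independent evidence about CREB. Of the 11, DUSP1 had a CRE in the promoters searched and 10 genes did not, where 3.23% of 11386 measured genes had one. The core is not reported for this list.

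**Figure D4:**
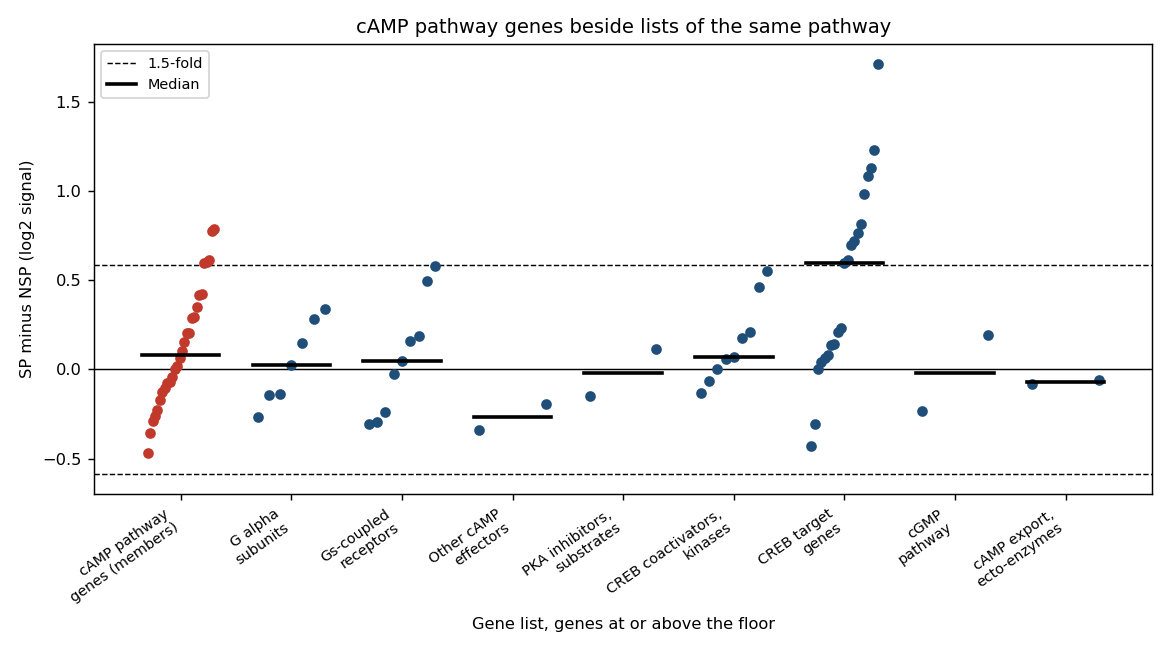
SP minus NSP difference in log2 signal (y axis) of the 28 cAMP pathway genes (red) and of the genes at or above the floor in 8 lists from the surroundings of the pathway (blue, x axis), with list medians as bars and 1.5-fold as dashed lines. Only the CREB target list has its median (0.60) above the 1.5-fold line, and its widest point is EGR1 at 1.71.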

How the data were processed

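Total RNA from SP and NSP cells of J82 was measured on 1 exon array each. The authors deposited values made with RMA and Partek, per the submitters' processing notes. That the deposited values are log2, and that each belongs to a gene-level probe set, was inferred from RMA, from their range and from the platform annotation, and every fold depends on it; for versions, filters and genome build the sources used here give nothing. RMA shrinks differences between dim signals, and no detection call could be computed. The number of arrays limits precision.

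Genes were named from the 14432 probe sets with 1 symbol in the platform annotation, updated through the Entrez identifier in RefSeq GRCh38.p14 (14404 matched). No test was run: differences were counted at 1.5-fold among genes with at least 1 of their values at or above the median of the table (the floor). The rule for named genes allowed any member, and at most 4 genes of each of 8 lists (132 entries, 111 measured), those with the widest differences at or above the floor, plus GNAS, ABCC4 and EP300. Members, lists and this rule were chosen with earlier results of these data known. Counting code was checked on simulated data with planted differences. Alternatives were 3 floors, centring, lowess (span 0.3), quantile normalisation, the brightest probe set, platform symbols, a 1.3-fold threshold and a narrower membership. Python 3.11.15, pandas 2.3.3, numpy 2.4.6, statsmodels 0.14.6 and matplotlib 3.10.9 were used.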

Additional observations from a re-analysis of the deposited data

Results flagged for a closer look

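A probe set that the comparisons do not use had a wide difference. Of 12 probe sets annotated to several genes with at least 1 symbol fitting the rule, 8 reached the floor, and probe set 3606304 read 8.21 in SP and 7.28 in NSP, a difference of 0.92 or 1.90-fold. It cannot be assigned to a gene.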

How the results depend on the processing

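The count of 5 members at least 1.5-fold higher in SP ranged from 4 to 7 under 9 of the 10 alternatives listed with the methods. It was 5 under centring, quantile normalisation, the brightest probe set, platform symbols and the narrower membership. Most of these say little about stability. Each member has 1 probe set, so choosing the brightest could not change a member's value, and platform symbols left every value the same. Centring added the same small amount to every difference, and the narrower membership kept all 5 genes. With both values required to reach the floor the count was 2 (CREB1 and PDE4D). Split by gene span, a choice added after seeing the data, it was 4 for 100 kb and over and 1 under 100 kb, and 1 in each class with both values at the floor. The count lower in SP was 0 under these 10 except the 1.3-fold threshold, where it was 1 (PRKACA); at that threshold 6.74% of all genes were higher and 6.9% lower. The members' median difference lay between 0.02 and 0.15 throughout. Of 300 single differences of members recomputed under centring, lowess, quantile normalisation, the brightest probe set and platform symbols, 1 moved by more than 0.1 or across the threshold (AKAP9, 0.575 after lowess). Those under the brightest probe set and platform symbols equalled the main values for every member. The count of stimulatory receptors at 1.5-fold was 1 (PTGER4) after centring, lowess or quantile normalisation. No paired analysis was possible because each population has 1 array. Members under the floor, 32 of 60, are limited by signal over background.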
